A study of Mus musculus with 6 samples.

Results

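Transcripts of 8 long noncoding RNA genes (Malat1, Neat1, Gas5, Snhg1, Snhg5, Snhg8, Snhg12 and Epb41l4aos) were followed in bone marrow neutrophils of stressed and unstressed mice. The genes were chosen by symbol, and each matched exactly 1 of the 47561 rows, which carry 46329 distinct symbols. All 6 libraries came from male wild-type (WT) mice of unstated strain and age. The Control group held 3 libraries, and the CUMS group held 3 libraries from mice under chronic unpredictable mild stress, a rodent model in which varied mild stressors follow one another, here over 4 weeks. Cells had been sorted by flow cytometry, with surface markers that the labels do not name. The labels do not say that the libraries stem from separate animals, so p-values measure only the spread between these samples, which may be technical.

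The libraries held 78845457 to 109757558 estimated counts. Multiples of 4 are over-represented among the values, so a read pair was taken as about 4 counts, which no label states. On that reading the libraries held 19711364 to 27439390 read pairs, on which the read pair numbers and counting spreads below depend, and Control replicate 1 was the smallest. The 13 neutrophil markers, among them S100a8, Ly6g and Csf3r, summed to 123309 to 134748 CPM (counts scaled to the size of the library) in Control and 104530.3 to 130725 CPM in CUMS, and none of them was at 0; 3 passed the test described below as higher (Elane, Mpo and Mmp9) and 2 as lower (Camp and Ltf). The 15 erythroid markers summed to 1308 to 1879 CPM in Control and to 2529 to 3016 CPM in CUMS, and 9 of them passed the test as higher. The 14 markers of dividing cells summed to 479.7 to 522 CPM in Control and to 337 to 362 CPM in CUMS, and 12 of them passed as lower. Markers of B lineage cells (166 to 171 against 206 to 213 CPM) and plasma cells (15.5 to 17.5 against 20.1 to 22.4 CPM) also lay apart, with 1 marker called higher in each. The sums overlapped for T and NK cells (4.17 to 6.30 against 4.32 to 6.01 CPM, 0 called by edgeR and 0 at an unadjusted p under 0.05), eosinophils (44.9 to 51.9 against 51.6 to 60.1 CPM) and monocytes (773 to 823 against 737 to 829 CPM). Of the 8 eosinophil markers 2 were called higher (Prg2 at 0.885 and 4.82 CPM, Epx at 0.119 and 1.49 CPM, means of Control and CUMS) and all 8 had a log2 fold change above 0 (median 1.57), and of the 13 monocyte markers 2 were called higher (Csf1r and F13a1). In such bulk samples, fewer cells of a type and less RNA per cell cannot be told apart.

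Long noncoding RNAs are transcripts that act, or are processed, without being translated into a known protein. Malat1 is retained in the nucleus at speckles, bodies rich in splicing factors, and the neighbouring gene Neat1 makes the RNA scaffold of paraspeckles, bodies that hold RNA-binding proteins and certain RNAs in the nucleus. The other members are host genes of small nucleolar RNAs (snoRNAs): their introns release snoRNAs, which guide chemical modification of ribosomal and spliceosomal RNA, while the spliced exons are exported and, for hosts such as Gas5, degraded through nonsense-mediated decay in the course of translation. Many such hosts belong to the genes whose transcripts begin with a C and a run of pyrimidines, a feature they share with ribosomal protein genes and that ties their translation and decay to growth signals.

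The GENCODE M21 annotation of GRCm38 typed 25 distinct genes inside the 6 host genes as snoRNAs, on the host's own strand. Gas5 held 9, Snhg1 held 8, Snhg12 held 4, Snhg5 held 2, and Snhg8 and Epb41l4aos held 1 each. Malat1 and Neat1 held 0. The start sites of the host genes are shown because they carry features that the choice of members did not use. Each window runs from 45 bases before to 15 bases after a RefSeq start site (GRCm38.p6), 5′ to 3′ on the gene's strand. Capitals mark TATAAA on either strand (TTTATA when reversed) or TATATA, and a C followed by at least 4 pyrimidines that begins within 10 bases of the start site, read on the gene's strand only. Where several such matches overlapped, the one nearest to the start site was taken, so further pyrimidines can precede the capitals. The motifs were chosen with the sequences in view.
Gas5 (the start at 161035166, chr1:161035121-161035180, plus strand): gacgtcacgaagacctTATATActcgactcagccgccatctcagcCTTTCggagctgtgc
Snhg8 (chr3:123508322-123508381, minus strand): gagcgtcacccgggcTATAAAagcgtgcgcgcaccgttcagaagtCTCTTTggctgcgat
Snhg12 (chr4:132308633-132308692, plus strand): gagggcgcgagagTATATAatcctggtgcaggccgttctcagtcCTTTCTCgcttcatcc
Snhg5 (chr9:88522883-88522942, minus strand): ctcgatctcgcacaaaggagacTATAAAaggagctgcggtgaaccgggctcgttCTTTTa
Snhg1 (chr19:8723442-8723501, plus strand): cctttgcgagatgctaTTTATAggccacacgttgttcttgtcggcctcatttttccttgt
Malat1 (chr19:5802658-5802717, minus strand): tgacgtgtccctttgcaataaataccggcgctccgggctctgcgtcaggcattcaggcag

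These windows of the 5 host genes all held a TATA-like motif, which began between position -32 (Snhg12) and position -23 (Snhg5), where +1 is the start site and there is no position 0. Of all 32851 RefSeq promoters, 4.74% held such a motif in the same 60 bases. Taken in this way, the match stood exactly at the start site in Gas5 and Snhg8, as in 2.51% of promoters, at position -1 in Snhg12 and at position 10 in Snhg5. A match lay within 10 bases of the start in 30.72% of all promoters, so that part is common. Both features together stood in 4 of these windows (Gas5, Snhg5, Snhg8 and Snhg12) and in 1.47% of promoters. The Malat1 window held neither, nor did the window of a second, upstream Gas5 start (161034601). Neat1 and Epb41l4aos had no window in the table. A match is a description of the letters, not of a bound factor.

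The members were not equally abundant. Neat1 and Malat1 ranked 1 and 2 among the 2063 genes typed as lncRNA in RefSeq that were tested, and 63 and 117 among all 15777 genes tested. Together they gave 20.1% of all CPM of these lncRNA genes. Gas5, Snhg8 and Snhg5 ranked 178, 216 and 400 in the same class, Snhg12 and Snhg1 766 and 770, and Epb41l4aos did not pass the filter on low counts. "Abundant" therefore describes Malat1 and Neat1 but not the host genes.

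Levels between genes were compared as CPM per kb of merged exons. Malat1 came first, with a mean of 138 and a range of 103 to 235 over the 6 libraries, followed by Neat1 (67.5, from 62.3 to 73.2). In CPM alone the order of this pair was the other way round, since the merged exons of Neat1 span 20771 bases and those of Malat1 6983. The values do not separate the long from the short form of Neat1, whose annotated transcripts run from 711 to 20771 bases. A shorter length would raise the Neat1 value, so the order of this pair per kb rests on the length taken. Snhg8 followed at 8.67 (5.99 to 11.8), Gas5 at 2.42 (1.98 to 2.80), Snhg5 at 1.89 (1.36 to 2.62), Snhg12 at 0.457, Snhg1 at 0.366 and Epb41l4aos at 0.220. The ranges of Gas5 and Snhg5 overlapped, as did those of Snhg12 and Snhg1 and of Snhg1 and Epb41l4aos, and these neighbours in the order were not separated beyond their spread. The order was the same per kb of the longest annotated transcript. For Malat1 and Neat1 that length equals the merged exons, so this alternative could not change the order of the pair.

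**Figure D1:**
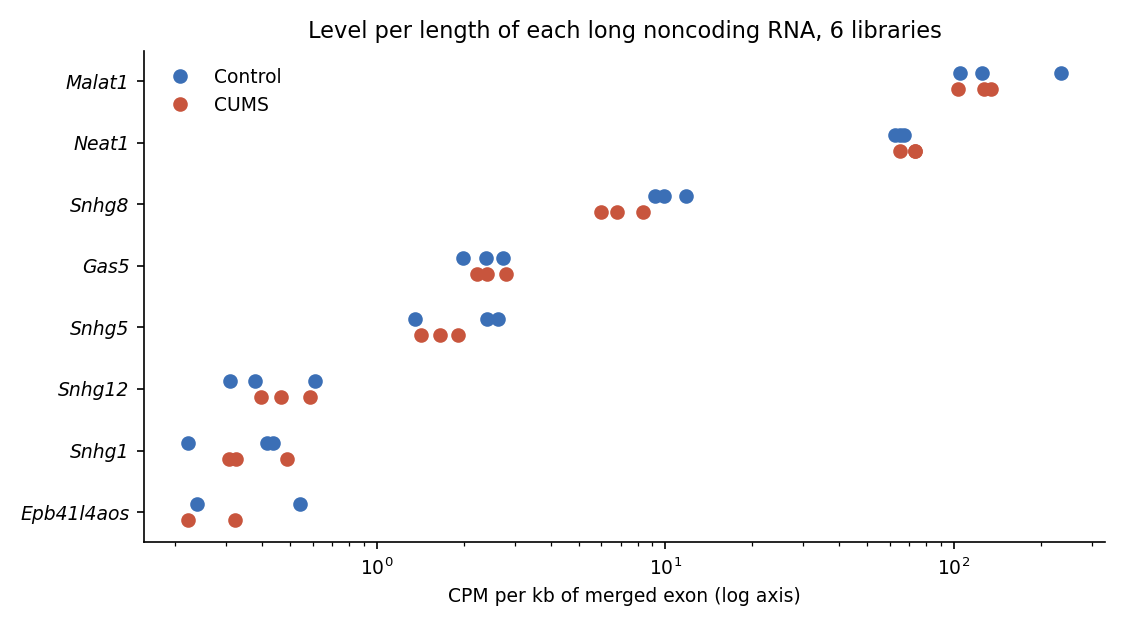
Level of each gene in CPM per kb of merged exon (horizontal log axis), with 1 point per library, blue for Control and red for CUMS; the 2 libraries in which Epb41l4aos was listed at 0 cannot be drawn on this axis. Malat1 and Neat1 lie far above the host genes, and Snhg8 leads the hosts.

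With edgeR's quasi-likelihood test and Benjamini-Hochberg adjustment over all genes, 0 of the 7 members tested passed the threshold of 0.05, where 4.50% of the 15777 genes did (2.36% higher and 2.14% lower in CUMS). An unadjusted p under 0.05 was seen for 2 members (Neat1 and Snhg8), against 16.9% of all genes, and DESeq2 called 1 (Snhg8) of the 5 members for which it gave an adjusted p, against 11.7%. The log2 fold change, CUMS against Control, was above 0 in 4 members and below 0 in 3, with a median of 0.06 beside -0.007 over all genes. The Control and CUMS values did not overlap in 1 member (Snhg8), as in 22.9% of all genes. A p that misses the threshold does not show equal levels, so the 95% interval of each difference is given below.

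**Figure D2:**
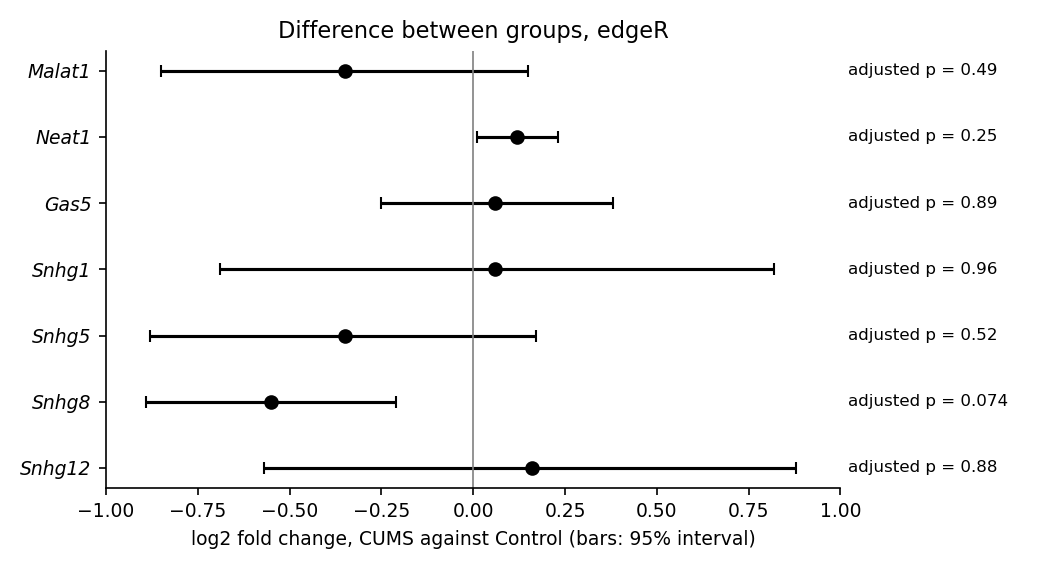
Log2 fold change of the 7 members tested, CUMS against Control, with 95% intervals from edgeR and the p adjusted over all genes. The intervals of Neat1 and Snhg8 leave out 0 before adjustment, and those of Snhg1 and Snhg12 are the widest.

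Malat1 (ENSMUSG00000092341.3) lies on the minus strand of chromosome 19 at 5795690 to 5802672 (GRCm38). It measured 1638, 873 and 730.1 CPM in Control replicates 1 to 3 and 721, 935 and 885 CPM in CUMS replicates 1 to 3. Control replicate 1 stood far above every other library, and the other 2 Control libraries lay within the range of CUMS. The means were 1080.5 ± 488 CPM and 847 ± 112 CPM (SD, n = 3 each). The log2 fold change was -0.35 ± 0.23 (SE; 95% interval -0.85 to 0.15, adjusted p = 0.49), and the exact two-sided permutation p was 0.8. The sign rested on that single library, since without Control replicate 1 the log2 fold change was 0.08 (adjusted p = 0.81).

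The spread of Malat1 in Control was far above counting error. The libraries held 15177 to 32128 read pairs of Malat1, for which counting alone gives a spread of 0.654% in Control, whereas the measured spread (SD over mean) was 45.2%. The highest Control library was 2.24-fold above the lowest, against a median of 1.07-fold over the 1927 genes with a mean of at least 100 CPM. Only 3 of those genes (0.156%) varied that much within Control: Malat1 itself, AY036118 and LOC118568312. AY036118, a noncoding gene whose locus carries sequence like that of the ribosomal RNA precursor, measured 528 CPM in Control replicate 1, 131 and 96.8 CPM in the other Control libraries, and 133, 152 and 312 CPM in CUMS. LOC118568312, which is not in the gene tables used here, measured 416 CPM in Control replicate 1 and 269 CPM in CUMS replicate 3, and 91.9 to 130.1 CPM elsewhere. Both were thus also raised in CUMS replicate 3, where Malat1 was not. The part of such transcripts in the Malat1 value was not tested. AY036118 and LOC118568312 were picked after their values were seen.

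**Figure D3:**
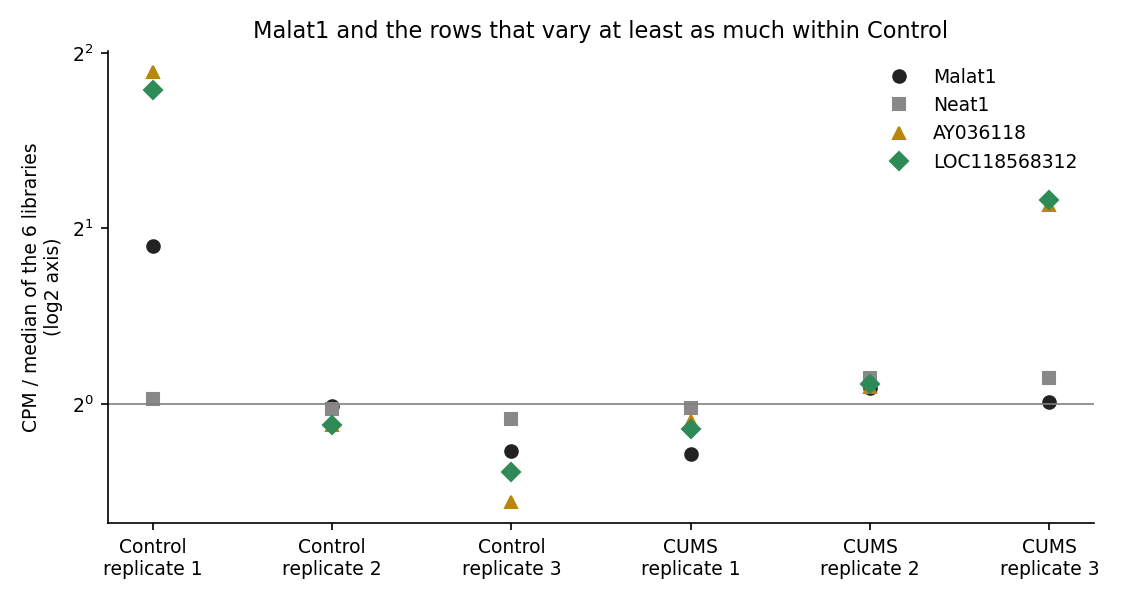
CPM of Malat1, Neat1, AY036118 and LOC118568312 in each library, divided by the gene's median over the 6 libraries (vertical log2 axis). In Control replicate 1 Malat1, AY036118 and LOC118568312 stand far above the other Control libraries while Neat1 is only slightly higher there, and in CUMS replicate 3 AY036118 and LOC118568312 are raised without Malat1.

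Neat1 (ENSMUSG00000092274.3) lies on the same strand at 5824708 to 5845478, with 22.0 kb between the pair of genes. It measured 1396, 1345 and 1293 CPM in Control and 1346, 1516 and 1521 CPM in CUMS. CUMS replicates 2 and 3 lay above all Control libraries, and CUMS replicate 1 lay among them. The means were 1345 ± 51.5 CPM and 1461 ± 100 CPM (SD, n = 3 each). The log2 fold change was 0.12 ± 0.05 (SE; 95% interval 0.01 to 0.23). The difference did not pass after adjustment (unadjusted p = 0.035, adjusted p = 0.25), and the exact two-sided permutation p was 0.2. Without CUMS replicate 1 Neat1 was called higher (0.18, adjusted p = 0.028), where 4.21% of genes were called. Over the other 16 alternatives the adjusted p missed the threshold each time. Control replicate 1, so far apart in Malat1, was the highest Control library in Neat1 by a small margin.

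The ratio of Malat1 to Neat1 within a library needs no scaling between libraries. It was 1.17, 0.649 and 0.565 in Control and 0.536, 0.616 and 0.582 in CUMS. Malat1 exceeded Neat1 in estimated counts in Control replicate 1 and in no other library. On the log2 scale the means were -0.41 ± 0.56 and -0.79 ± 0.10 (SD, n = 3 each), and differed by -0.39 (permutation test, exact and two-sided, p = 0.3). Without Control replicate 1 the difference was -0.07.

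**Figure D4:**
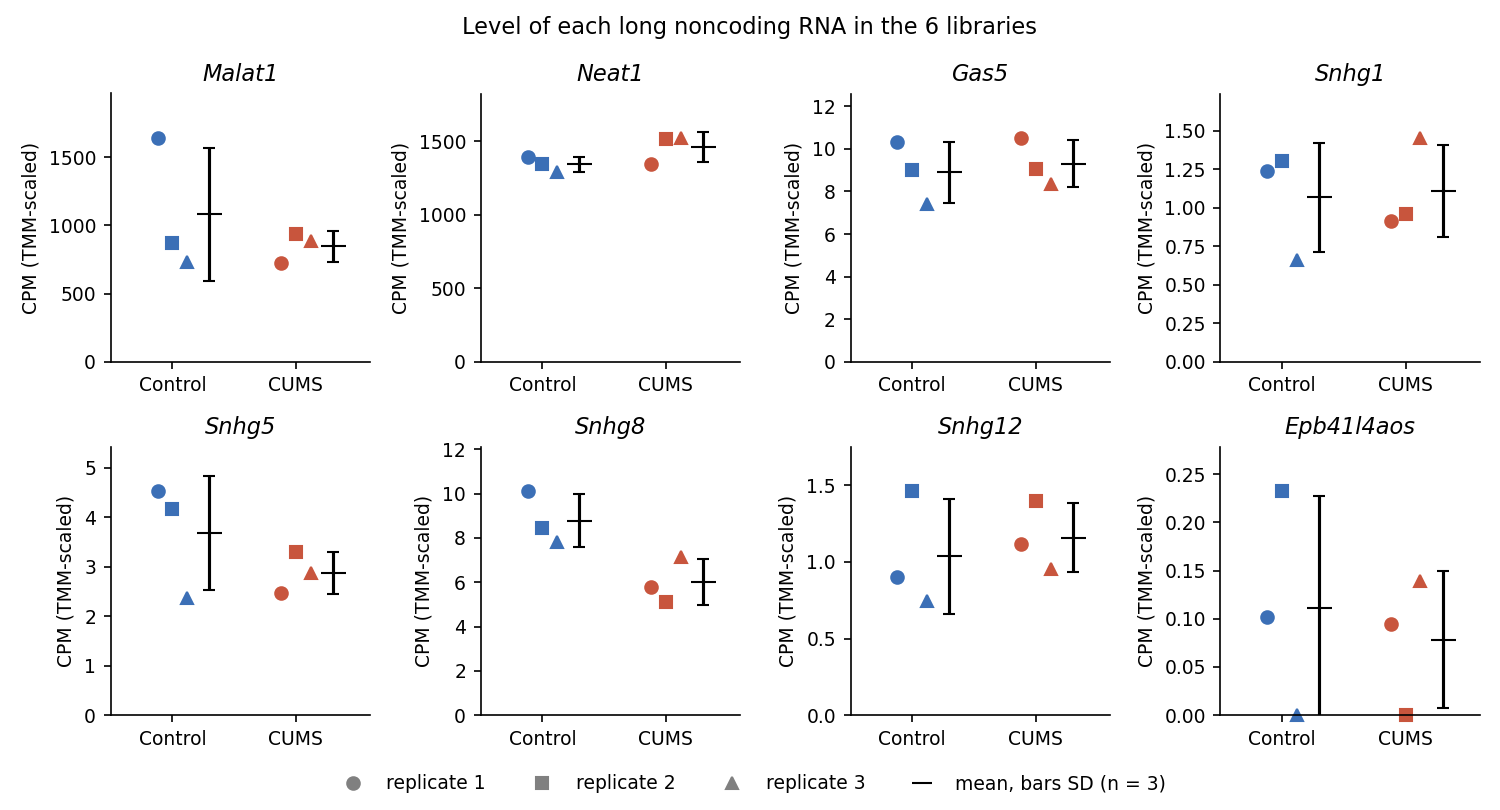
CPM of each of the 8 genes (vertical axes, each from 0) in the Control (blue) and CUMS (red) libraries, with marker shapes for replicate numbers and the mean with SD bars (n = 3) beside them; the lower bar of Epb41l4aos in Control is clipped at 0. Malat1 is spread by Control replicate 1, and Snhg8 is the gene whose groups do not overlap.

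Among the host genes, Snhg8 (ENSMUSG00000104960.1; chromosome 3, 123507552 to 123508404, minus strand), host of the snoRNA Snora24, came nearest to a call. It measured 10.1, 8.45 and 7.81 CPM in Control and 5.77, 5.11 and 7.13 CPM in CUMS. All 3 CUMS libraries lay below all 3 Control libraries, though CUMS replicate 3 and Control replicate 3 were close. The means were 8.78 ± 1.18 CPM and 6.00 ± 1.03 CPM (SD, n = 3 each), a ratio of 0.684 (95% interval 0.541 to 0.864). The log2 fold change was -0.55 ± 0.15 (SE) with an unadjusted p of 0.0043 and an adjusted p of 0.074. The exact two-sided permutation p was 0.1, the smallest that 3 against 3 libraries allow.

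The call on Snhg8 depended on the processing, while its direction was the same in all 17 alternatives (log2 fold change -0.69 to -0.44). It passed with DESeq2 (adjusted p = 0.013, where 11.7% of genes with an adjusted p passed), among genes of at least 1 CPM (0.048, where 7.92% passed) and with values divided by 4 (0.047, where 6.96% passed). It did not pass in the other 14, with adjusted p up to 0.26. With 122 to 218 read pairs per library, counting gives a spread of 7.18% in Control and 8.11% in CUMS, beside measured spreads of 13.4% and 17.2%. In the same libraries the markers of dividing cells were lower and those of erythroid cells higher in CUMS, as given above, and their part in the Snhg8 values was not tested.

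Gas5 (ENSMUSG00000053332.13; chromosome 1, 161034422 to 161038539, plus strand), named for its rise in growth arrest and the host with the most snoRNAs here, differed by less than the spread between libraries. It measured 10.3, 8.99 and 7.43 CPM in Control and 10.5, 9.06 and 8.37 CPM in CUMS, and the groups overlapped throughout. The log2 fold change was 0.06 ± 0.14 (SE; 95% interval -0.25 to 0.38, adjusted p = 0.89; exact two-sided permutation p = 0.7). The interval leaves room for levels from 0.842 to 1.30 of Control. Zbtb37, a protein-coding gene on the opposite strand, overlaps the Gas5 gene by 428 bases, and reads from that stretch cannot be told apart without strand. Zbtb37 itself had means of 73.8 ± 3.82 CPM (Control) against 88.8 ± 10.5 CPM (CUMS; SD, n = 3 each; adjusted p = 0.089).

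Snhg5 (ENSMUSG00000097195.9; chromosome 9, 88521050 to 88522929, minus strand), host of Snord50a and Snord50b, measured 4.52, 4.16 and 2.36 CPM in Control. In CUMS it measured 2.46, 3.30 and 2.87 CPM. Control replicates 1 and 2 lay above all CUMS libraries, and Control replicate 3 lay below them all. The log2 fold change was -0.35 ± 0.24 (SE; 95% interval -0.88 to 0.17, adjusted p = 0.52; exact two-sided permutation p = 0.4). It was -0.18 without Control replicate 1 (adjusted p = 0.85) and -0.59 without Control replicate 3 (adjusted p = 0.17). The spread of 31.6% in Control exceeded the 11% that counting gives.

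Snhg1 (ENSMUSG00000108414.1; chromosome 19, 8723475 to 8726443, plus strand) and Snhg12 (ENSMUSG00000086290.9; chromosome 4, 132308623 to 132311024, plus strand) were near 1 CPM. Snhg1 measured 1.24, 1.30 and 0.660 CPM in Control and 0.914, 0.962 and 1.45 CPM in CUMS. Snhg12 measured 0.905, 1.46 and 0.742 CPM in Control and 1.12, 1.40 and 0.953 CPM in CUMS. For both genes Control replicate 3 was the lowest library and the groups overlapped. The log2 fold changes were 0.06 ± 0.34 and 0.16 ± 0.33 (SE; adjusted p = 0.96 and 0.88), and the exact two-sided permutation p-values were 1.0 and 0.7. Their 95% intervals reached from -0.69 to 0.82 and from -0.57 to 0.88. These intervals leave room for levels from 0.618 to 1.76 and from 0.673 to 1.84 of Control. Snhg1 rested on 14.0 to 39.2 read pairs and Snhg12 on 15.8 to 39.0, for which counting gives spreads of 20.4% and 20.5% in Control, beside measured spreads of 33.0% and 36.4%.

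Epb41l4aos (ENSMUSG00000087590.2; chromosome 18, 33794892 to 33795986, plus strand), a spliced noncoding gene with an intronic snoRNA, was too low to test. The Control libraries held 8, 24 and 0 estimated counts of it and the CUMS libraries 8, 0 and 15, at most 6.00 read pairs. A count of 0 allows up to 3 read pairs, or 12 estimated counts, for counting error only, and 4 of the 6 libraries lay at or under that floor. No fold change is given for this gene.

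Summed over the 6 host genes, the level was 27.2, 24.6 and 19 CPM in Control and 20.9, 19.8 and 20.9 CPM in CUMS. Control replicate 3 was the lowest of all and Control replicate 1 the highest, so the CUMS libraries lay inside the Control range. The means were 23.59 ± 4.18 CPM and 20.54 ± 0.61 CPM (SD, n = 3 each; permutation test, exact and two-sided, p = 0.4). The difference of -3.05 CPM became -1.25 CPM without Control replicate 1 and -5.34 CPM without Control replicate 3. Of the 7 members tested, 5 (Neat1, Gas5, Snhg1, Snhg5 and Snhg12) had their lowest value in Control replicate 3, and 3 (Malat1, Snhg5 and Snhg8) had their highest in Control replicate 1.

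**Figure D5:**
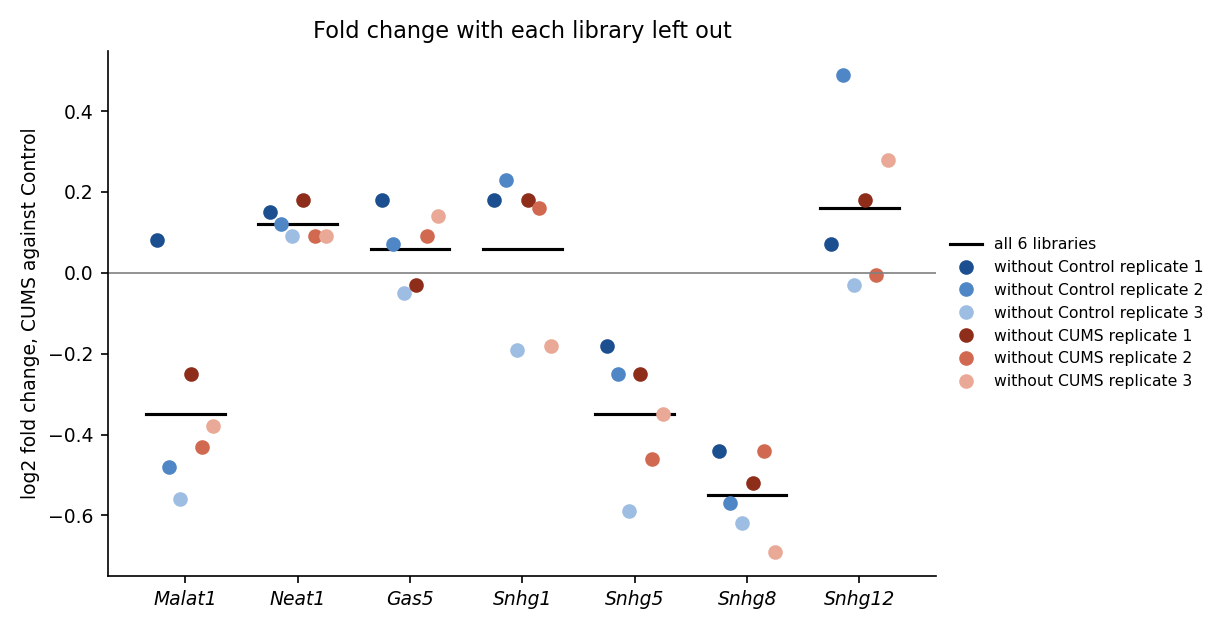
Log2 fold change of the 7 members tested, CUMS against Control, with all 6 libraries (black line) and with each library left out in turn (points). Malat1 changes sign without Control replicate 1, Gas5, Snhg1 and Snhg12 change sign without more than 1 of the libraries, and Neat1, Snhg5 and Snhg8 keep their sign.

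Few rows were matched to the snoRNAs themselves. Rows for 8 of the 25 snoRNA genes inside the hosts were matched by their GENCODE name, and 3 of these passed the filter. Many of the unmatched genes carry placeholder names, such as Gm26224 inside Gas5. Whether they are listed under another symbol was not checked. Snord47, inside Gas5, was listed at 44, 61 and 57 estimated counts in the Control libraries and at 25, 39 and 34 in the CUMS libraries. Its Control libraries all lay above its CUMS libraries, and groups without overlap were seen in 22.9% of all genes. The difference was not called (log2 fold change -0.92, edgeR adjusted p = 0.33). At about 4 counts to a read pair, it rests on few read pairs. Snord22, inside Snhg1, and Snora16a, inside Snhg12, had log2 fold changes of -0.45 and -0.20 (adjusted p = 0.83 and 0.95). Snora24, inside Snhg8, was listed at 1 estimated count in every library, less than a read pair.

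Genes for proteins that work with these RNAs are set beside the 4.50% of all genes that were called and the 16.9% with an unadjusted p under 0.05. Of 27 genes for paraspeckle proteins, 1 was called higher and 0 lower (median log2 fold change 0.05). The called gene was Cirbp, a cold-inducible RNA-binding protein, at 21.7 ± 1.98 CPM in Control and 28.4 ± 1.27 CPM in CUMS (SD, n = 3 each; log2 fold change 0.39 ± 0.08 SE, adjusted p = 0.019). Of 28 genes for speckle and splicing proteins, 2 were called higher and 0 lower (median 0.05), and 11 had an unadjusted p under 0.05. In this list DESeq2 called 7, the fit with a replicate block 5, and the fit without CUMS replicate 1 called 4. Over all genes these settings called 1239 (11.7% of those with an adjusted p), 931 and 697 (4.21%), against 710 (4.50%) in the main test. The shares over all genes were not matched to the lists for level. The count in the list fell to 0 once CUMS replicate 3 was dropped, and the same held for dropping Control replicate 2 and for dropping Control replicate 3. It fell to 1 once Control replicate 1 was dropped, and also once CUMS replicate 2 was. The summed level of these 28 genes was 5446 to 5674 CPM in the Control libraries and 5827 to 6137 CPM in the CUMS libraries. That of the paraspeckle list was 2026 to 2053 CPM and 2056 to 2093 CPM, a narrow gap. For each sum the exact two-sided permutation p was 0.1, the lowest this design allows. Among single genes, 22.9% had groups without overlap. Abundant genes weigh most in such sums, and the log2 fold change was above 0 in 18 of the 28 genes and 17 of the 27. Srsf5, a serine- and arginine-rich splicing factor, had means of 509 ± 12.3 CPM (Control) and 581 ± 13.2 CPM (CUMS; SD, n = 3 each), a rise of 0.19 ± 0.04 on the log2 scale (SE; adjusted p = 0.016). Rbm39, a splicing coactivator, had means of 385 ± 11.2 and 439 ± 18.7 CPM and rose by the same 0.19 ± 0.04 (adjusted p = 0.029). The Cirbp call ended without Control replicate 1 or 2 or CUMS replicate 2 or 3 (adjusted p 0.071 to 0.096), that of Srsf5 without Control replicate 2 or 3 or CUMS replicate 3 (0.070 to 0.10), and that of Rbm39 when any of 5 libraries, all but CUMS replicate 1, was left out (0.067 to 0.16).

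Genes for snoRNP proteins, the partners of snoRNAs, were lower on balance without a call. With edgeR 0 of 15 were called and 2 had an unadjusted p under 0.05, 4 had a log2 fold change above 0, and the median was -0.28. Their summed level was 46.2 to 47.9 CPM in Control and 36.8 to 40.5 CPM in CUMS, and the groups lay apart (permutation test, exact and two-sided, p = 0.1, the lowest this design allows). Ruvbl2, an ATPase of snoRNP assembly, measured 17.6 ± 1.00 and 14.2 ± 1.51 CPM (SD, n = 3 each; adjusted p = 0.13), and Snu13, which binds box C/D snoRNAs, 7.46 ± 0.555 and 6.38 ± 0.827 CPM (adjusted p = 0.45). The markers of dividing cells were lower in the same libraries, and their part was not tested. Of 36 protein-coding hosts of snoRNAs, 1 was called lower and 0 higher (median -0.03). It was Hspa8, a constitutive chaperone gene, at 461 ± 9.07 and 388 ± 23.4 CPM (log2 fold change -0.25 ± 0.05 SE, adjusted p = 0.011), which was no longer called when Control replicate 3 or CUMS replicate 2 or 3 was left out (0.061 to 0.082).

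Of 19 genes for nonsense-mediated decay and the exon junction complex, edgeR called 0 (1 at an unadjusted p under 0.05; median -0.03). Smg1, the kinase of the pathway, measured 303 ± 26.5 and 329 ± 14.8 CPM (SD, n = 3 each; adjusted p = 0.36), and Pnrc2 111 ± 4.04 and 118 ± 4.14 CPM (0.43). Of 15 tested genes listed as genomic neighbours, edgeR called 0 (3 at an unadjusted p under 0.05; median -0.09). Genes were put on this list by symbol, and their positions were not checked, so a listed gene may lie elsewhere. In 6 of the 17 alternatives, the replicate block and DESeq2 among them, 1 of these genes was called. Frmd8 and Slc25a45, the most abundant of this list, measured 109 ± 4.79 and 102 ± 1.56 CPM (adjusted p = 0.39) and 105 ± 7.63 and 106 ± 4.19 CPM (0.95). Of 25 other well-known lncRNA genes tested, edgeR called 0 (6 at an unadjusted p under 0.05; median 0.06), while the fit with values divided by 4 called 2, and DESeq2, voom with and without quality weights and the fit on genes of at least 1 CPM each called 1. The most abundant, Tug1 and Mirt2, measured 143 ± 3.56 and 154 ± 6.10 CPM (adjusted p = 0.27) and 143 ± 4.48 and 133 ± 14.2 CPM (0.51).

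For each member, the genes of most similar pattern were taken as those with the highest Pearson r of log2 CPM over the 6 libraries, among 6125 named genes of at least 10 CPM. Over so few libraries high values of r arise easily, and r ignores the size of the change. For Malat1 they were Arrdc1 (r = 0.990) and Thada (0.982). Arrdc1 measured 78.8 CPM in Control replicate 1 and 63.6 to 68.5 CPM elsewhere, a much smaller spread than that of Malat1. For Neat1 they were Zmym5 (0.984) and Ncoa1 (0.983), for Gas5 Lpcat3 (0.999) and the ribosomal protein gene Rpl13 (0.992), and for Snhg5 Sod2 (0.992) and Tapt1 (0.978). For Snhg8 they were Ube2f (0.988) and Jkamp (0.984). Ube2f measured 24.3, 22.8 and 20.3 CPM in Control and 17.2, 15.2 and 19.2 CPM in CUMS (log2 fold change -0.39, adjusted p = 0.058), again with CUMS replicate 3 nearest to Control. For Snhg1 they were Evi2a (0.953) and Csnk1a1 (0.936), and for Snhg12 Inpp5a (0.982) and Senp1 (0.960).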

How the data were processed

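RNA of sorted bone marrow neutrophils was sequenced as read pairs of 150 bp from libraries made with 1 µg of total RNA, per the labels' protocols. Per the submitters' processing notes, the tools used with build mm10 included HISAT2 2.1 as well as featureCounts 1.6.4, next to cutadapt 1.16.5 and bcl2fastq 2.19, and DESeq2 2.11.40.6; no strand setting or annotation is named there. The deposited files hold whole numbers that were treated as estimated counts, since 4 occurred 1.78 to 1.96 times as often as its neighbours and 1588 rows carry identifiers of assembled transcripts. Where rows shared a symbol, the highest total was kept. CUMS and Control were compared with edgeR 4.0.16 (R 4.3.3): filterByExpr, TMM scaling, quasi-likelihood F test, group as the single term, Benjamini-Hochberg adjustment over 15777 genes, threshold 0.05. The test was checked on simulated data. SE and 95% intervals derive from the F statistic, and CPM are TMM-scaled. Alternatives used DESeq2 1.42.0, limma 3.58.1, other scalings and filters, and each library left out. Members and gene lists were chosen with earlier results of these data known. Genes named are the 8 members, called list genes (at most 6 a list), the 2 most abundant of a list without a call, and 2 genes of most similar pattern per member. Coordinates are from GENCODE M21 (GRCm38).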

Additional observations from a re-analysis of the deposited data

How the results depend on the processing

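Of 119 values of member fold changes under 17 alternatives, 108 kept both direction and side of the threshold, 4 moved past it (Snhg8 in 3, Neat1 in 1) and 7 changed sign. The sign changes were Malat1 without Control replicate 1 (0.08), Gas5 without Control replicate 3 (-0.05) or CUMS replicate 1 (-0.03), Snhg1 without Control replicate 3 (-0.19) or CUMS replicate 3 (-0.18), and Snhg12 without Control replicate 3 (-0.03) or CUMS replicate 2 (-0.0047). With a library left out, the log2 fold change ranged from -0.56 to 0.08 for Malat1, from -0.59 to -0.18 for Snhg5, from -0.05 to 0.18 for Gas5, from -0.19 to 0.23 for Snhg1 and from -0.03 to 0.49 for Snhg12. Members called numbered 0 with all libraries, 1 with DESeq2, 1 among genes of at least 1 CPM, 1 with values divided by 4, and 0 to 1 with a library left out. All genes called numbered 710, against 1239 with DESeq2 and 305 to 697 with a library left out. Over the 7 gene lists 4 genes were called, against 15 with DESeq2, 9 among genes of at least 1 CPM and 9 with values divided by 4. The shares over all genes in these settings were 4.50%, 11.7%, 7.92% and 6.96%. Voom with quality weights called 8 list genes, and 0 to 8 were called with a library left out. In the main test the lists held 25, 27, 28, 15, 19, 15 and 36 tested genes. The cause of these shifts was not tested. No pairing by replicate number was seen in the correlations of deviations over all genes tested. These were -0.026 to 0.008 for same-numbered libraries and -0.029 to 0.027 for the others. Such correlations near 0 do not show that the libraries share no batch. With a replicate block 0 members, 931 genes in all and 9 list genes were called. No scaling moved the median of all genes by more than 0.007. Snhg1, Snhg12 and Epb41l4aos rest on few counts. The length used for levels per kb was an alternative added after seeing the data.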

Other observations

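Other lncRNA genes did pass the test in these libraries. Of the 2063 genes typed as lncRNA in RefSeq that were tested, 19 were higher and 9 lower in CUMS (1.36%, against 4.50% of all genes), with a median log2 fold change of -0.03. A mean of at least 100 CPM was reached by 19 genes of this class and by 1927 of the 15777 genes tested. These shares of calls were thus not matched for level. The genes named here were chosen after their values were seen. F630028O10Rik, the fifth in abundance of this class, measured 223 to 254 CPM in Control and 336 to 348 CPM in CUMS (241 ± 16.0 and 343 ± 6.28 CPM, SD, n = 3 each; log2 fold change 0.51 ± 0.05 SE, edgeR adjusted p = 1.7e-04), and it was called with each library left out. Mirt1, the third in abundance, measured 329 to 354 CPM in Control and 376 to 435 CPM in CUMS (log2 fold change 0.26 ± 0.06 SE, adjusted p = 0.022), which was no longer called when any of 5 libraries, all but CUMS replicate 1, was left out (0.062 to 0.12). Among those that were lower, Brip1os measured 25.2 ± 1.15 and 19.7 ± 0.344 CPM (SD, n = 3 each; log2 fold change -0.35 ± 0.07 SE, adjusted p = 0.016). Chaserr, a noncoding gene next to the chromatin remodeller gene Chd2, measured 35.6 ± 0.491 and 41.7 ± 0.574 CPM (SD, n = 3 each; log2 fold change 0.23 ± 0.06 SE, adjusted p = 0.038). Whether the calls of Brip1os and Chaserr hold with a library left out is not given here.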
